A study of Cinachyrella cavernosa with 3 samples.

Results

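Healed tissue of a demosponge was set against regenerating tissue of the same species, over 1085 coding sequences (CDS, the protein-coding stretches of transcripts). These are the CDS listed in both the table during regeneration and the table after regeneration with 20 reads or more on at least 1 side, out of 3229 CDS listed in any table of the study. The species is Cinachyrella cf. cavernosa, a ball-shaped marine sponge. The animals were acclimatized for 2 weeks in natural sea water, moved in sets of 3 into aquaria of about 25 L, and wounded over about 10% of their volume in imitation of a fish bite, per the labels' protocols. The regenerating library was taken during regeneration, the healed library after regeneration, and a library taken before the wound is the study's control and is called the unwounded library below. Each stage had 1 library of messenger RNA, and how many animals went into each, which part of the animal was taken and at what time is not stated in the labels.

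Sponges have no organs, and their bodies are built from a few cell types: flagellated choanocytes that pump water and catch food, flattened pinacocytes that line surfaces, and mobile archaeocytes that can give rise to other cells. A wounded sponge closes the cut surface and then rebuilds the lost tissue, with archaeocytes and cells that leave their former state moving to the wound. The comparison asks how the messenger RNA of the healed sponge differs from that of the sponge while it rebuilds. In bulk tissue, fewer cells of a type and less RNA per cell cannot be told apart. The identifiers give a CDS number and a Unigene number (by usage, an assembled transcript) and are not paired with gene names or sequences in the sources used here, so each CDS is described by its length and its values, and none by function. For the same reason the tissue could not be checked against cell type markers.

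The table during regeneration listed 1769 CDS with 1062098 reads and the table after regeneration listed 2127 CDS with 965464 reads. Of the 1199 CDS listed in both, 114 had under 20 reads in each and were left out. The 1085 that remained held 96.0% of the reads during regeneration and 91.3% after it. A further 570 CDS were listed during but not after regeneration, with 3.81% of that library's reads, and 928 after but not during, with 8.56%. At the edge of the 20-read rule, 21 CDS had 20 as their higher count, with log2 folds from -1.60 to 0.86, and 32 CDS just outside it had 18, with log2 folds from -1.45 to 1.09. Levels are given as counts per 1000000 (CPM) after scaling by library total times a TMM factor of 0.755 during and 1.097 after regeneration, which is meant to keep a few very abundant CDS from setting the scale. Folds are on the log2(CPM + 1) scale, positive where the healed library was higher, and the scale understates the change of low CDS. Intervals are exact conditional binomial 95% intervals on read pairs. They cover counting error only, and no difference has a replicate check and none was tested, since each side is 1 library.

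Most of the CDS compared, which had to be listed in both tables, stood at a similar level in healed and regenerating tissue. Of the 1085, 678 (62.5%) lay within 2-fold, 45 (4.15%) stood 4-fold or more above the regenerating level and 71 (6.54%) stood 4-fold or more below it. The median log2 fold was -0.04, and the range from the 25th to the 75th percentile ran from -0.89 to 0.61. The 5th percentile stood at -2.10 and the 95th at 1.90. Far out, 10 CDS were at least 8-fold lower, 3 of them beyond 16-fold, and 12 were at least 8-fold higher, 2 of them beyond 16-fold. The balance of higher and lower CDS rested on the scaling. With library totals alone the median moved up by 0.53 and the split became 85 higher and 24 lower.

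**Figure D1:**
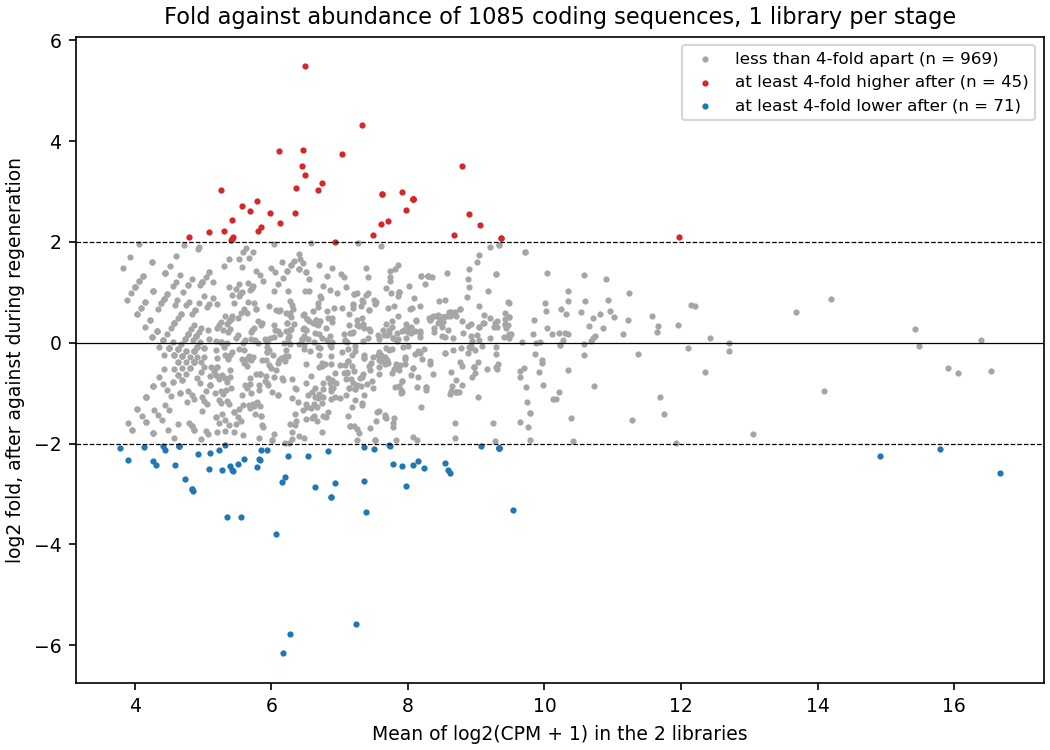
Each point is 1 of 1085 coding sequences, placed by its mean log2(CPM + 1) over the during and after libraries (x axis) and its log2 fold after against during regeneration (y axis), with dashed lines at 4-fold. The 71 lower coding sequences begin at the lowest mean of all, 3.78, and the 45 higher ones at a mean of 4.80. Beyond a mean near 10, 1 higher and 3 lower ones remain.

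Under the main settings the folds spread less widely at higher abundance. The CDS were divided into 5 classes of 217 by the mean of their 2 log2 CPM values, so that neither library alone placed a CDS. These classes rest on reads per CDS and not on reads per base. The interquartile range of the log2 fold was 1.75 in the lowest class, 1.61, 1.51 and 1.44 in the next 3, and 1.10 in the highest. The share of CDS within 2-fold was 58.1% in the lowest class and 72.8% in the highest. Counting error narrowed in the same order. The median interval spanned a ratio by a factor of 2.69 to either side in the lowest class, where the median CDS had 20 reads during and 24 after, and by 1.18 in the highest, where it had 554 and 798. How much of the wider spread in the lowest class is counting error, or follows from the 20-read rule, was not tested. Without a read filter the interquartile range was 1.24 in the lowest class, then 1.58, 1.65, 1.47 and 1.07 up to the highest. With deposited FPKM, where the classes rest on FPKM, it was 1.56, 1.86, 1.95, 1.47 and 1.09. In both settings the highest class was the narrowest and the lowest was not the widest.

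The centre of the folds moved less than their width. The class medians were -0.11, -0.28, -0.03, 0.08 and 0.13 from the lowest to the highest class, which put the highest class 0.16 above the median of all 1085. In the lowest class 1 CDS was higher by 4-fold or more in healed tissue and 17 were lower by that much. In the other classes the counts lay closer, at 13 and 17, 12 and 11, 12 and 13, and 7 and 13. A CDS has to be listed in both tables, and the smallest count listed in either was 4 reads.

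The lowest class median by length was that of CDS of 1000 bases and over. The classes from 300 to under 1000 bases had medians near that of all CDS: 0.04 for 584 CDS from 300 to under 400 bases, -0.07 for 304 from 400 to under 600 bases and -0.09 for 125 from 600 to under 1000 bases. The 13 CDS under 300 bases had a median of -0.10. For the 59 CDS of 1000 bases and over the median was -0.61, which is 0.58 below that of all CDS. Of these 59, 39 were lower in the healed library, against 514 of the 1026 shorter CDS. Library totals and FPKM both move the median of all CDS upwards. With them the median of the long class was -0.08 and -0.07, or 0.58 and 0.62 below that of all CDS. Library totals shift all folds nearly alike, so the 0.58 follows from the calculation and is not a further check. In this class 8 were lower by 4-fold or more and 1 was higher, or 13.6% and 1.69%, against 6.54% and 4.15% of all CDS. With library totals 1 of the 59 was at least 4-fold lower (1.69%, against 2.21% of all CDS), and with FPKM 1 of 57 was (1.75% against 2.35%). In both settings 7 of the 8 came under 4-fold, and CDS_45076_Unigene_70514 stayed. The median long CDS had 158 reads in regenerating and 172 in healed tissue, against 82 and 102 over all CDS.

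**Figure D2:**
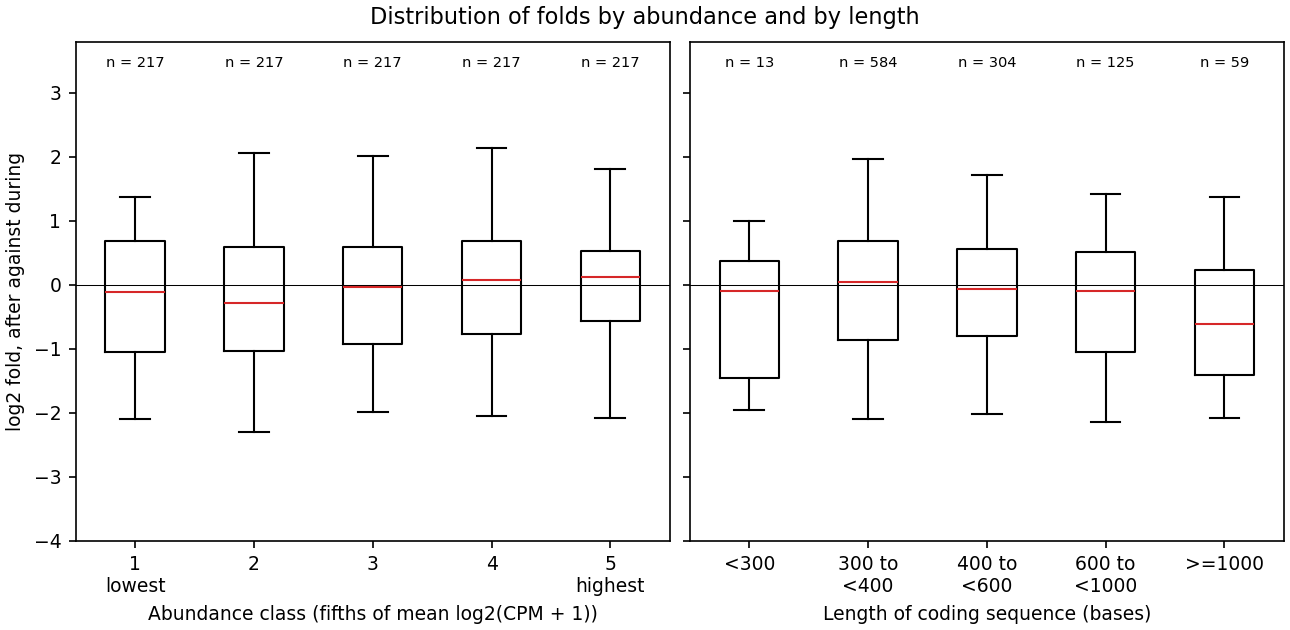
Boxes give the 25th to 75th percentile of the log2 fold after against during regeneration, red lines the median and whiskers the 5th and 95th percentiles, by abundance class (left) and by length in bases (right). The boxes narrow from an interquartile range of 1.75 to 1.10 with abundance, and the class of 1000 bases and over is centred at -0.61.

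Copies make up a part of the long class. A set of 5 CDS of 1107 bases, CDS_12352_Unigene_19021 among them, had the same 366 reads in the unwounded, 1064 in the regenerating and 330 in the healed library, at a log2 fold of -2.09 (95% interval -2.35 to -1.84), and these 5 are among the 8. Counted once per set, 4 of 54 long sets (7.41%) were at least 4-fold lower, against 66 of 1029 sets over all lengths (6.41%), so by sets the share of long CDS past 4-fold was near the share of all CDS. The median over the 54 sets was -0.54. In abundance classes 1 to 3 the median of 23 long CDS was -0.42, with 0 lower and 1 higher by 4-fold or more. In class 4 the median of 22 was -0.41, with 3 lower and 0 higher. In the highest abundance class, 11 of 14 were below 0 and the median was -1.42, with 5 lower by 4-fold or more, all of them the copies above. By sets it was 7 of 9 and -1.07. The shorter CDS of that class had a median of 0.17 over 203 CDS, 83 of them below 0, and 0.13 over 184 sets, 76 of them below 0. Of the read pairs of these 14 long CDS, FPKM kept an estimated median of 28.2% during and 33.1% after regeneration. Over the whole highest abundance class it kept 96.5% and 97.3%. The 5 copies, each at an estimated 11.9% in both libraries, count 5 times in the medians of the long CDS, and no median over sets was taken. The other long CDS of this class ran from 0% in CDS_12294_Unigene_18936 (1272 bases) to 94.2% during and 97.8% after in CDS_16658_Unigene_25820. The long class is small and these sub-classes were described after the folds had been seen.

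The longest CDS of this abundant group, CDS_53659_Unigene_83912 with 2865 bases, had 948 reads in the unwounded, 1034 in the regenerating and 600 in the healed library, at a log2 fold of -1.18 (-1.40 to -0.98). CDS_12293_Unigene_18935 (1671 bases) had 490, 1236 and 514 reads, at -1.66 (-1.88 to -1.45). Both were highest during regeneration. CDS_24318_Unigene_37726 and CDS_24320_Unigene_37728 (both 1080 bases, each with 768, 310 and 1062 reads) and CDS_16658_Unigene_25820 (1050 bases, with 634, 324 and 872 reads) were the 3 that went the other way, at 1.37 and 1.03. Counted as 9 sets, 7 had an unwounded level within 2-fold of the healed level. For shorter CDS of the same abundance class it was 148 of 183 sets, a similar share. Over the 9 long sets the log2 difference of unwounded minus healed ran from -1.54 in CDS_22822_Unigene_35446 to 0.84 in CDS_53659_Unigene_83912.

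Among the longest CDS past 4-fold, CDS_29688_Unigene_46310 (1854 bases) had 406 reads in regenerating and 100 in healed tissue, at -2.41 (-2.90 to -1.97). CDS_45076_Unigene_70514 (1464 bases) had 428 and 54 reads, at -3.36 (-4.02 to -2.81). Neither was listed before the wound. On the higher side the longest was CDS_8803_Unigene_13531 (1080 bases), with 170 reads in the unwounded, 28 in the regenerating and 310 in the healed library, at 3.03 (2.28 to 3.97). It was followed by CDS_53397_Unigene_83509 (924 bases), with 76, 20 and 162 reads at 2.57 (1.66 to 3.73), and CDS_45350_Unigene_70991 (807 bases), with 178, 68 and 464 reads at 2.36 (1.85 to 2.93). All 3 were lowest during regeneration.

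The reads were spread over more CDS in healed tissue than in regenerating tissue. During regeneration 6 CDS were enough to hold over 50% of the reads, against 9 after regeneration and 15 before the wound. The 100 most abundant held 84.7% of reads during regeneration (exact binomial 95% interval 84.6 to 84.8) and 76.6% after it (76.5 to 76.7). Among CDS with a smaller share of reads in healed tissue, most of the summed loss lay in 3 CDS. Over the 1085, 370 had a smaller share of reads in healed tissue, and their summed share fell by 29.9 percentage points. The summed share of 3 of them dropped by 24.0 points.

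**Figure D3:**
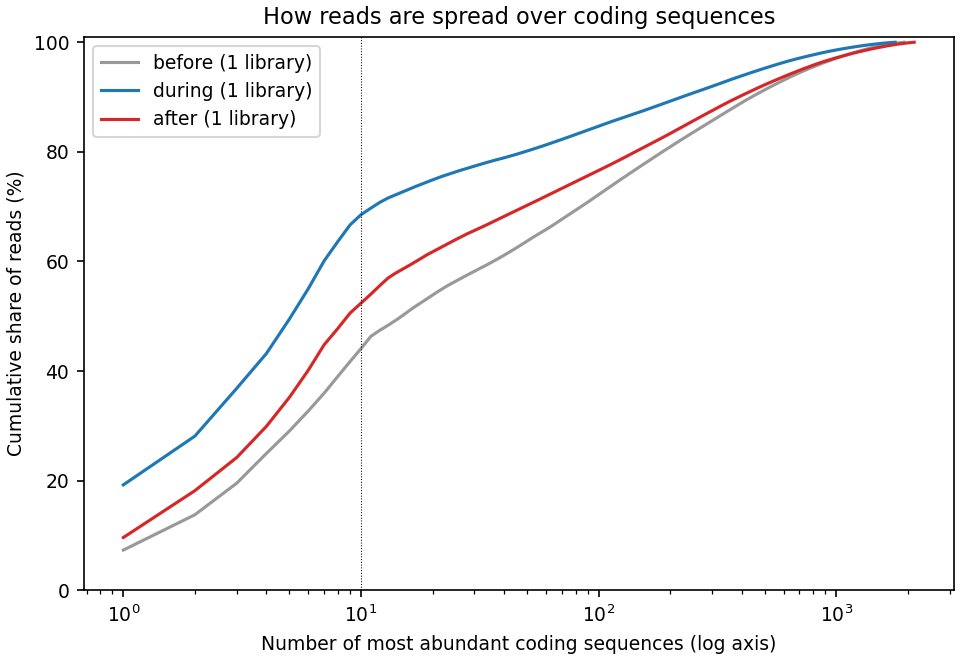
Cumulative share of reads (y axis, percent) held by the most abundant coding sequences of each library (x axis, number, log scale), with a dotted line at 10. The curve during regeneration lies above the other two throughout the abundant range, and the healed library lies between it and the library before the wound.

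CDS_41997_Unigene_65739 (300 bases) had 25226 reads in the unwounded, 204380 in the regenerating and 44986 in the healed library. Its share of reads went from 19.2% to 4.66%, so that it fell by 14.6 percentage points, and its log2 fold was -2.58 (-2.61 to -2.56). CDS_47465_Unigene_74294 (363 bases) had 20754, 94460 and 28894 reads, at -2.11 (-2.14 to -2.08). CDS_29213_Unigene_45573 (537 bases) had 4194, 54112 and 15094 reads, at -2.24 (-2.28 to -2.21). By reads, these 3 were the most abundant CDS past 4-fold on the lower side. CDS_41997_Unigene_65739 and CDS_47465_Unigene_74294 ended within 2-fold of their unwounded level, with 42465 against 27046 CPM and 27275 against 22251 CPM, while CDS_29213_Unigene_45573 was at 14248 CPM in healed and 4497 CPM in unwounded tissue. With library totals in place of TMM factors, the log2 folds were -2.05, -1.57 and -1.70. With deposited FPKM they were -1.93, -1.31 and -1.61, so that none of the 3 reached 4-fold there, and with FPKM centred on the median they were -2.48, -1.86 and -2.16.

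The other 7 of the 10 most abundant CDS by reads lay within 2-fold. CDS_6894_Unigene_10670 (330 bases) had 44520 reads in the unwounded, 92596 in the regenerating and 82502 in the healed library, at -0.57 (-0.59 to -0.55). CDS_56343_Unigene_88040 (318 bases) was at -0.60 (-0.62 to -0.57) and CDS_63111_Unigene_98617 (351 bases) at -0.49 (-0.52 to -0.47). CDS_60465_Unigene_94520 (327 bases), at -0.06 (-0.09 to -0.04), and CDS_6383_Unigene_9864 (375 bases), at 0.06 (0.04 to 0.08), stood at nearly the same CPM in both libraries. CDS_45008_Unigene_70396 (327 bases) was at 0.28 (0.25 to 0.30) and CDS_11208_Unigene_17245 (327 bases) at 0.87 (0.82 to 0.91). The narrow intervals reflect the high counts and do not cover the scaling: the sign of 5 of these 7 turned under another scaling or with FPKM, and CDS_45008_Unigene_70396 and CDS_11208_Unigene_17245 kept theirs. In the highest abundance class the CDS closest to no difference was CDS_34095_Unigene_53252 (597 bases), with 756 reads in regenerating and 996 in healed tissue, or 942 and 940 CPM.

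On the higher side the widest fold belonged to CDS_40420_Unigene_63274 (375 bases), with 170 reads in the unwounded, 10 in the regenerating and 640 in the healed library. Its log2 fold was 5.49 (4.36 to 7.23). CDS_60028_Unigene_93815 (576 bases), not listed before the wound, had 28 and 764 reads, at 4.33 (3.60 to 5.25). For CDS_40420_Unigene_63274 the healed library was thus the highest of all, while CDS_60028_Unigene_93815 has only the levels by which it was chosen.

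CDS_49760_Unigene_77850 (357 bases) had 8 reads in the unwounded, 18 in the regenerating and 350 in the healed library, at 3.82 (2.92 to 5.03). CDS_43612_Unigene_68238 (378 bases) had 576, 14 and 274 reads, at 3.81 (2.81 to 5.23), and CDS_28208_Unigene_43952 (372 bases) had 486, 28 and 510 reads, at 3.75 (3.01 to 4.68). The first was low in both earlier libraries, and the latter pair was low during regeneration alone. CDS_54430_Unigene_85112 (321 bases), with 274, 20 and 310 reads, and CDS_4488_Unigene_6957 (576 bases), with 94, 22 and 302 reads, had log2 folds of 3.50 (2.64 to 4.64) and 3.33 (2.50 to 4.41), again with the lowest level during regeneration.

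The most abundant CDS on the higher side was CDS_47399_Unigene_74181 (747 bases), with 6934 reads in the unwounded, 1546 in the regenerating and 8798 in the healed library, at 2.11 (2.0 to 2.22). It was followed by CDS_62041_Unigene_96953 and CDS_62042_Unigene_96954 (564 bases), which had the same 2016, 256 and 1436 reads, at 2.08 (1.81 to 2.37), and count as 1 measurement. The centred FPKM folds were wider, at 3.10 for CDS_47399_Unigene_74181 and 3.52 for the pair, of whose read pairs FPKM kept an estimated 8.86% during and 22.9% after regeneration. In these too the unwounded and the healed library were both high.

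On the lower side CDS_715_Unigene_1122 (297 bases) had 16 reads in the unwounded, 492 in the regenerating and 8 in the healed library, at -6.17 (-8.23 to -4.97). CDS_1053_Unigene_1630 (384 bases) had 76, 458 and 10 reads, at -5.78 (-7.55 to -4.67). CDS_888_Unigene_1378 (300 bases) had 14, 124 and 14 reads, at -3.45 (-4.92 to -2.42). In each the library during regeneration was the highest, and CDS_1053_Unigene_1630 was lower in healed tissue, at 9.44 CPM, than before the wound, at 81.5 CPM.

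CDS_41618_Unigene_65138 (366 bases) was the most abundant of the 8 lowest folds, with 1082 reads in the unwounded, 1882 in the regenerating and 248 in the healed library, at -3.32 (-3.61 to -3.05). Its healed level of 234 CPM was also under the 1160 CPM before the wound. The remaining 4 of the 8 were not listed before the wound. CDS_13032_Unigene_20138 (870 bases) had 840 reads in regenerating and 22 in healed tissue, at -5.59 (-6.67 to -4.80), and CDS_42826_Unigene_67030 (339 bases) had 200 and 18, at -3.80 (-5.05 to -2.89). CDS_24311_Unigene_37713 (348 bases) had 108 and 12, at -3.46 (-5.08 to -2.36), and the fourth, CDS_45076_Unigene_70514, is the long CDS given above.

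**Figure D4:**
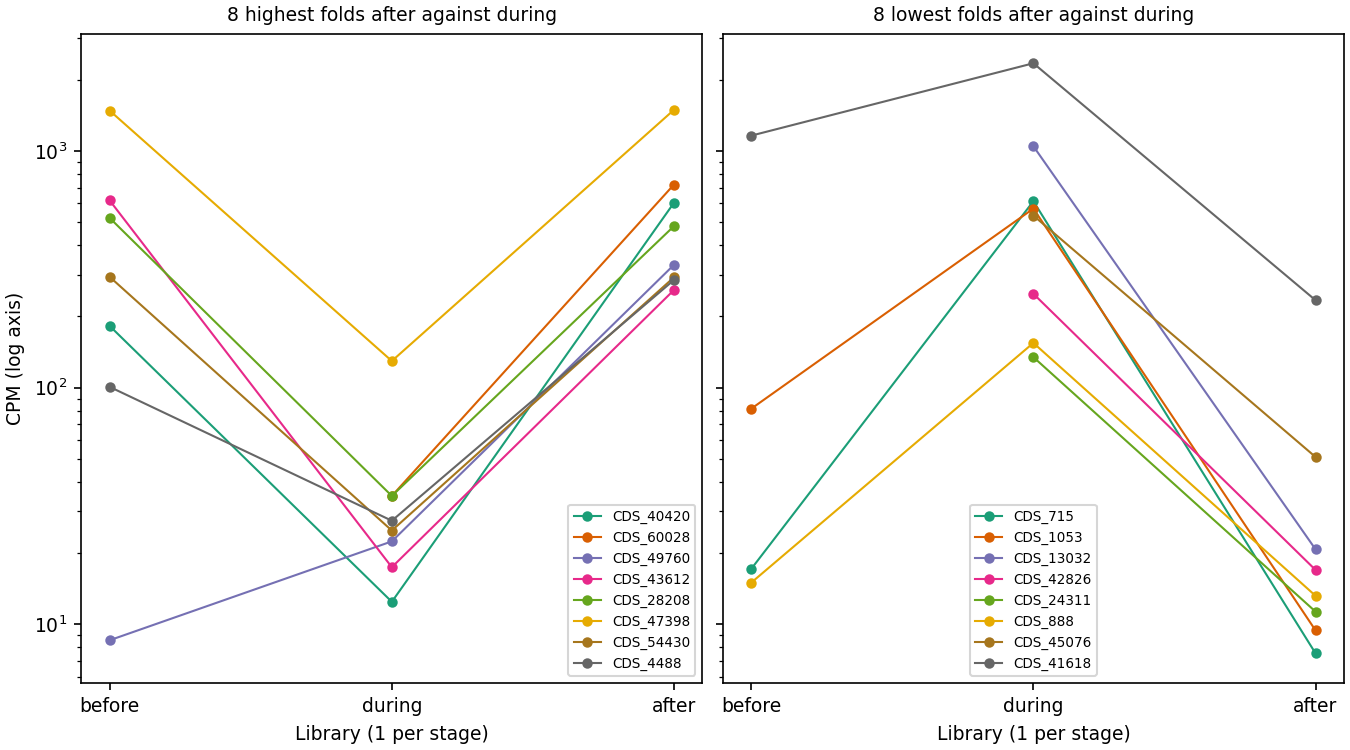
CPM on a log axis in the library before the wound, during and after regeneration, for the 8 coding sequences with the highest (left) and the 8 with the lowest (right) log2 folds; a coding sequence with no point at a stage was not listed there. On the left 6 of 8 are lowest during regeneration among 3 listed levels. On the right every coding sequence with 3 listed levels is highest during regeneration. A coding sequence with no point before the wound has only the levels by which it was chosen.

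The library before the wound entered the choice and classing of these CDS through the scaling alone, and it gives another level for 852 of the 1085. Of the 45 higher CDS, 42 were also listed before the wound, with a median of 220 CPM there, 34.9 CPM during and 326 CPM after regeneration. For 28 of the 42 the level before the wound was within 2-fold of the healed level, and for 6 it was within 2-fold of the regenerating level. Of the 71 lower CDS, 53 were listed before the wound, with medians of 55.8, 202 and 28.3 CPM, and 37 of these were within 2-fold of the healed level against 7 within 2-fold of the regenerating level. CDS chosen for a wide gap between healed and regenerating tissue hold a high or a low extreme in one of them, so another library tends to lie away from that extreme, and no expectation for these counts was computed. Among CDS within 2-fold, the level before the wound was within 2-fold of the healed level in 396 of 544 and of the regenerating level in 351.

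Among CDS past 4-fold that were listed before the wound, a small majority had an unwounded level between the regenerating and the healed level. Of the 42 higher ones, 18 stood before the wound above both later libraries, 22 between them and 2 below both. Of the 53 lower ones, 20 stood below both, 30 between them and 3 above both. Among the 544 CDS within 2-fold that were listed before the wound, 235 stood below both, 84 between them and 225 above both. In that group the regenerating and the healed level lie close together by choice, so the range between them is narrow. Past 4-fold that range is wide by choice, and no expected share was computed. The 233 CDS not listed before the wound had lower folds, with a median log2 fold of -0.31 against 0.07 for the 852 listed there. Of these 233, 18 (7.73%) were lower by 4-fold or more, near the 6.54% of all CDS, and 3 (1.29%) were higher, against 4.15%. They were also less abundant, with 36 and 32 median reads against 114 and 140.

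Read counts and the deposited FPKM values (fragments per 1000 bases and 1000000 fragments) gave the same fold for most CDS. With both sets of folds centred on their medians, 914 of 1066 CDS (85.7%) differed by less than 0.25 on the log2 scale and 49 (4.6%) by at least 2-fold. The other 19 CDS had reads but an FPKM of 0 in a library and have no FPKM fold. Of the higher CDS with an FPKM fold, 42 of 44 stayed at least 4-fold higher, and of the lower ones 63 of 68 stayed at least 4-fold lower, with 0 changes of sign.

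The widest disagreement among the CDS past 4-fold was in CDS_47398_Unigene_74180 (303 bases), whose 1380, 104 and 1580 reads gave a log2 fold of 3.51 (3.12 to 3.96) and whose centred FPKM fold was 0.29. FPKM kept 28.2% of its read pairs during and 2.75% after regeneration, by an approximate estimate from CDS of similar length. Its neighbour by number, CDS_47399_Unigene_74181, kept 46.7% and 93.4%. The pair CDS_24318_Unigene_37726 and CDS_24320_Unigene_37728 had identical counts in every library, yet FPKM values of 24.68 and 321.37 during and 1043.86 and 310.60 after regeneration. Their FPKM folds before centring were 5.40 and -0.05 on the log2 scale, while the counts gave 1.37 for both. Among the 632 CDS with at least 100 reads in either library, 82 fell into 34 sets of the same length and identical counts, and among members with an FPKM fold it was in this set alone that they differed by 2-fold or more. Of the 45 higher CDS 8 belonged to 3 such sets, and of the 71 lower CDS 7 belonged to 2.

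**Figure D5:**
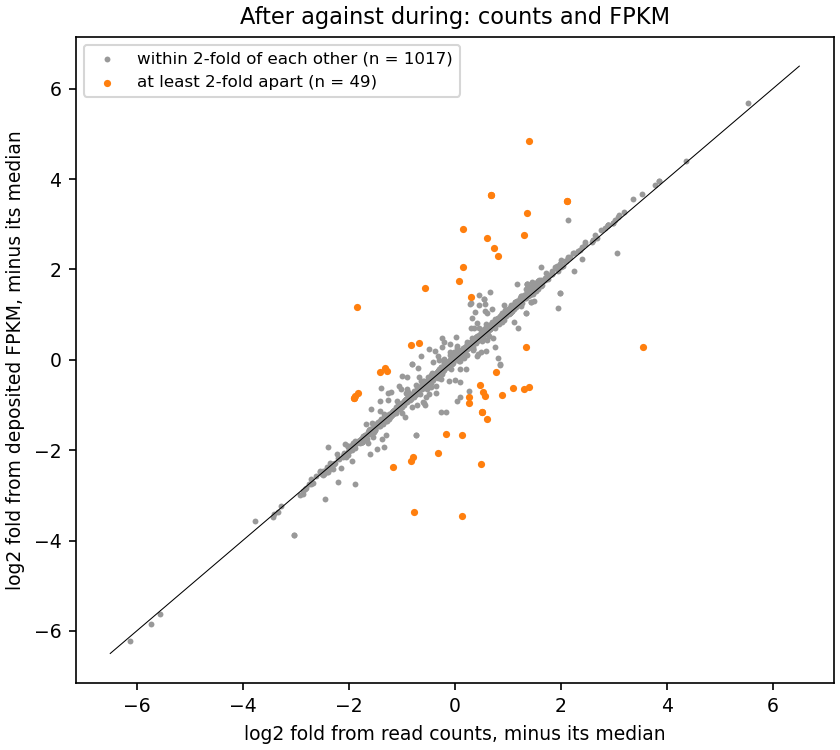
Log2 fold after against during regeneration from read counts (x axis) and from the deposited FPKM values (y axis), each minus its median, for 1066 coding sequences, with the line of equality. Orange points are the 49 that differ by at least 2-fold; most points lie on the line, and CDS_47398_Unigene_74180 lies far below it with a centred FPKM fold of 0.29.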

How the data were processed

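Read counts, lengths and FPKM per CDS are the authors' deposited values, 1 table per library. The submitters' processing notes name FastQC, Trimmomatic and RSEM, with no versions, and libraries were paired-end and stranded (TruSeq), per the labels' protocols; the assembler, the aligner and the rule for listing a CDS are not stated there. The deposited FPKM values were scaled by length and library by the authors, per the file headers. Every deposited count is even, so a read pair appears to count as 2 reads, and intervals use pairs. CDS missing from a table were not read as 0.

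Tables were joined on the CDS identifier. TMM factors (edgeR 4.0.16, R 4.3.3) used the 887 CDS listed in all 3 libraries, with the library before the wound as reference. The share of pairs kept by FPKM is FPKM times the 0.2 quantile of pairs over FPKM among the 61 CDS nearest in length, over its pairs, and can exceed 100%. The fold code was tested on simulated data. Named CDS are the 8 highest and 8 lowest folds past 4-fold, the 10 most abundant, the 3 longest and 3 most abundant past 4-fold on each side, and the 1 nearest to no difference in the highest abundance class. The 14 abundant long CDS, the pair with unequal FPKM and other CDS outside this rule were named after their values were seen. Members, classes and rules were chosen with earlier results of these data known. Alternatives were other scalings, FPKM, pseudocounts, read filters, thresholds, copies counted once and unlisted CDS as 0.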

Additional observations from a re-analysis of the deposited data

How the results depend on the processing

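No paired analysis was possible because each stage has 1 library, and no library could be left out. Counts are given as higher and lower, against 45 and 71. Library totals gave 85 and 24 and deposited FPKM 117 and 25, with the median fold shifted up by 0.53 and 0.59. A 2-fold threshold gave 172 and 235 and an 8-fold one 12 and 10. Unlisted CDS read as 0 reads gave 687 and 452, with 678 of 2108 CDS within 2-fold. A filter of 100 reads, with fewer CDS compared, left 44 lower and 391 within 2-fold, and CDS whose FPKM keeps 90% of pairs left 47 lower. Median-of-ratios factors (DESeq2 1.42.0), TMM on the 2 libraries alone, centred FPKM, pseudocounts of 0.1 and 5, no filter, 1 CDS per set of copies and totals without the most abundant CDS stayed within 1.5 times of each count.

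Class medians are relative to that of all CDS. At 100 reads the lowest and highest abundance classes were at 0.28 and 0.0064, with interquartile ranges of 2.84 and 1.11, and CDS from 600 to under 1000 bases were at 0.15. The highest class was then no longer above the lowest by its median; the classes are re-formed over fewer CDS in that setting. Fixed read limits put the fourth class at 0.33. The interquartile range under 300 bases was 1.1995 without a filter, and that of 1000 bases and over was 0.86 for the 12 CDS keeping 90% of pairs. The long class stayed between -0.83 and -0.48 under every alternative run. Other scalings and the centring of FPKM could hardly move this relative value, so they are no check of it. The 100-read filter gave -0.83, 1 CDS per set -0.48, FPKM -0.62 and the 12 CDS keeping 90% of pairs -0.53. The 10 most abundant CDS held 68.5% of reads during and 52.4% after regeneration. The 50 most abundant held 80.2% and 70.2%, and by FPKM times length the 10 held 72.9% and 59.9%. Pairs kept by FPKM, an alternative chosen after seeing the data, gave 70.0% and 54.9%. Of 27 named CDS past 4-fold, 0 changed sign and 6 came under 4-fold in some setting.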
